A study of Mus musculus with 5 samples.

Results

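Gamma-delta T cells are T lymphocytes whose antigen receptor pairs a gamma with a delta chain in place of the alpha and beta chains of most T cells. The cells described here came from mouse kidney after unilateral ureteral obstruction (UUO), in which a ureter is tied off and the kidney behind it is injured and scars. A cell barcode was kept if it held 500 or more unique molecular identifiers (UMIs, each standing for 1 captured transcript) from 250 or more genes, with no more than 20% of the UMIs mitochondrial. A kept cell was counted as a gamma-delta T cell from 2 UMIs of Cd3d, Cd3e and Cd3g in sum, 1 UMI of Trdc and 1 UMI of Trgc1 and Trgc2 in sum. The rule found 376 cells among 12172 kept kidney cells, and among 20619 kept cells of the 4 libraries with counts. Trdc encodes the constant part of the delta chain, Trgc1 and Trgc2 those of gamma chains, and the Cd3 genes the signalling chains that every T cell receptor needs.

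The study, whose title asks about group 3 innate lymphoid cells moving from gut to kidney and the role of PD-1 in fibrosis, profiled sorted cells of male mice aged 8 to 10 weeks on the BD Rhapsody system, with 1 library per group and no stated number of mice per library. One kidney library came from wild-type mice 14 days after UUO (here WT day 14), and the other from mice of the strain B6.Cg-Pdcd1tm1.1Shr/J 3 days after UUO, labelled as a knockout of PD-1 (here knockout-labelled day 3). Small intestine of wild-type mice, sham-operated or at day 3 of UUO, was profiled as well, and gene counts for the wild-type day 3 kidney were not analysed here. Genotype label and day differ together between the kidney libraries and cannot be told apart. The kidney cells are labelled as innate lymphoid cells, but 3070 of 5212 kept cells at WT day 14 and 4134 of 6960 in the knockout-labelled library met the CD3 minimum. The protocol in the labels describes pulmonary artery tissue, which is not an organ of this series. With 1 library per group no difference was tested and no p-value is given. Intervals in brackets are exact 95% intervals that cover counting error only.

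Mouse gamma-delta T cells are known to leave the thymus with their function largely set. One kind makes interleukin 17 (IL-17), carries the transcription factors Maf and Sox13 and the kinase Blk, responds to interleukins 23 and 1, and stays in tissues. Another kind resembles cytotoxic lymphocytes, makes interferon gamma and carries receptors of natural killer (NK) cells. Within the first kind, cells made before birth carry an invariant receptor encoded by the variable segments Trgv6 and Trdv4. In obstructed and otherwise injured kidneys, gamma-delta T cells are known as an early local source of IL-17.

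The rule rests on 2 gamma constant genes that are close to identical, so the first 90 bases of the constant exon are shown for the 4 gamma constant genes. The sequences are from GENCODE transcripts on GRCm38 (mm10), 5′ to 3′, with bases that differ from Trgc1 in capitals.
Trgc1 (chr13:19214103-19214192, plus strand): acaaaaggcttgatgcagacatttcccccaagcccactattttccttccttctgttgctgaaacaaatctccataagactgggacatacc
Trgc2 (chr13:19307462-19307551, minus strand): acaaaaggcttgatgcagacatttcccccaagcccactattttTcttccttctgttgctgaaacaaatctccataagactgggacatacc
Trgc3 (chr13:19260885-19260974, plus strand): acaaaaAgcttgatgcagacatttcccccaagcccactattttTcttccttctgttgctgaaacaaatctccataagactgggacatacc
Trgc4 (chr13:19344558-19344647, plus strand): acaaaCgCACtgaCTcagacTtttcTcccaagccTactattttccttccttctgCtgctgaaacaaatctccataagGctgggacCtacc
In this stretch Trgc2 differs from Trgc1 at 1 base, Trgc3 at 2 and Trgc4 at 12. Over the coding part Trgc1 and Trgc2 were 97.4% identical, and over the 3′ end after it 94.6%, against 79.1% and 59.8% for Trgc1 and Trgc4. The sources used here do not say how reads were divided between Trgc1 and Trgc2, so separate values of these 2 genes are uncertain; their sum, which the rule uses, does not depend on that division.

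The variable segments named above are shown next because they mark one set of the cells in the results below. The last 120 bases of each exon are given, with the codon of the conserved cysteine before the third complementarity-determining region in capitals, located as the last tyrosine-tyrosine-cysteine stretch.
Trdv4 (chr14:54075396-54075515, plus strand): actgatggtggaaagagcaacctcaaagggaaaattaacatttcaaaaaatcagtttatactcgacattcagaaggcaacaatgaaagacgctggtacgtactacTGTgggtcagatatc
Trgv6 (chr13:19190810-19190929, plus strand): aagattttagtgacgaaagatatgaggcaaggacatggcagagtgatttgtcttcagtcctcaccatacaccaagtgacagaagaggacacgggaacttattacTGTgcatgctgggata

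The WT day 14 library held 232 gamma-delta T cells, 4.45% [3.91, 5.05] of its kept cells. The knockout-labelled day 3 library held 144, 2.07% [1.75, 2.43] of its kept cells. The cells carried a median of 1817.5 UMIs at WT day 14 and 2421.5 in the knockout-labelled library, so shares of cells with a UMI are also given after thinning each cell to 1000 UMIs, which leaves out 7 shallower cells of the former and 0 of the latter. Of the WT day 14 cells, 2 shared a barcode with wild-type kidney at day 3 and 4 with UUO intestine. The knockout-labelled library had no barcode list used here, so overlap with it was not counted.

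The label was checked against markers the rule did not use. Levels are in CPM, UMI counts summed over all cells of a kind and scaled to a total of 1000000. Cd163l1, a scavenger receptor known on IL-17-making gamma-delta T cells, stood at 529 and 376 CPM (here and below the WT day 14 library comes first), against 5.12 and 5.03 CPM in CD3 cells without a Trdc UMI. Sox13 stood at 151 and 88.3 CPM against 8.6 and 3.89 CPM, and Trdv4 at 200.2 and 108 CPM against 0.183 and 2.97 CPM. Blk, a Src-family kinase, stood at 367 and 383 CPM, against 242 and 56.6 CPM in the other CD3 cells. All 4 genes were higher in the selected cells than in the other T cells of the same library, Blk by the least at WT day 14. Trdv4 and Trdc belong to the same chain, and Trdc separated the groups. The Trdv4 contrast was therefore partly set by the selection. All 4 are genes of the IL-17 kind described above, so they do not check cells of the cytotoxic kind.

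Alpha-beta receptor transcripts were present in the same cells. Trac, the constant gene of the alpha chain, had a UMI in 87 of 232 cells (37.5%) at WT day 14 and in 86 of 144 (59.7%) in the knockout-labelled library. B cells, which do not normally express Trac, had a Trac UMI in 1 of 42 (2.38%) and 10 of 40 (25%), at median depths of 1328.5 and 1597 UMIs. Here and below the B cells were chosen to have no CD3 UMI, which can lower their shares with T cell transcripts. The Trac level was 373 and 648 CPM, against 1722 and 1539 CPM in the other CD3 cells. Trbc2 of the beta chain stood at 1552 and 1985 CPM, against 2096 and 2662 CPM. Only 14 and 2 of the cells had no Trac, Trbc1 or Trbc2 UMI. A Cd8a or Cd8b1 UMI was found in 20 and 42 of the cells, and Cd4 in 4 and 5. Most of the selected cells thus held transcripts of both receptor kinds. Mouse gamma-delta T cells are known to carry sterile beta-chain transcripts, and the part of these, of doublets and of free RNA in the counts was not tested.

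Cells at the Trdc edge of the rule had less Cd163l1 and more Trac than the rest. With exactly 1 Trdc UMI, Cd163l1 stood at 95.6 CPM at WT day 14 and 9.45 CPM in the knockout-labelled library, and with at least 2 at 629 and 509 CPM. Trac went the other way, at 633 and 1200 CPM with exactly 1 Trdc UMI and 313 and 447 CPM with at least 2. Just outside the rule, CD3 cells with a gamma constant UMI but no Trdc UMI had 8.11 and 14.3 CPM of Cd163l1 and 1299 and 1426 CPM of Trac. Their Blk stood at 431 and 159 CPM, at WT day 14 above the 367 CPM of the gamma-delta T cells, so Blk did not set the 2 groups apart in that library. At the gamma constant edge, 45 and 120 CD3 cells with a Trdc UMI had no Trgc1 or Trgc2 UMI and were left out. Those cells had 21.5 and 0 CPM of Cd163l1 and 1151 and 1105 CPM of Trac. The rule did not count Trgc4, so the shares of gamma-delta T cells depend on this choice too. Summed markers of other kinds of cell were low at WT day 14 and higher in the knockout-labelled library for kidney epithelium (7 and 1 of 8 markers at 0, sum 9 and 78.2 CPM), erythroid cells (2 and 1 of 4 at 0, 4.5 and 70.6 CPM) and myeloid cells (5 and 3 of 6 at 0, 2.25 and 15.1 CPM), and not for fibroblasts (4 and 5 of 5 at 0, 2.25 and 0 CPM). B cell markers summed to 139 and 136 CPM (2 and 1 of 5 at 0), 60 and 47 of 62 and 54 UMIs from Ighm, which had UMIs in 44 of 232 and 32 of 144 cells, while Cd79a was at 0 UMIs. Endothelial markers summed to 72.0 and 73.2 CPM (4 and 4 of 5 at 0), all of it from Pecam1, in 28 of 232 and 21 of 144 cells. Of the myeloid list C1qa, C1qb and Adgre1 were at 0 UMIs in both libraries. The part of these transcripts in the results was not tested.

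Il17a encodes the IL-17A cytokine and Il23r the receptor chain that binds interleukin 23. At least 1 UMI of either gene was found in 56 of 232 cells at WT day 14, 24.1% [18.8, 30.2], and in 24 of 144 cells of the knockout-labelled library, 16.7% [11.0, 23.8]. Il17a was detected in 30 and 11 cells, Il23r in 31 and 13, and both in 5 and 0. Thinned to 1000 UMIs per cell the shares were 16.9% (38 of 225) and 7.64% (11 of 144). A single cell held up to 22 UMIs of Il17a at WT day 14 and up to 10 in the knockout-labelled library, while no cell held more than 2 of Il23r. Among B cells 0 of 42 and 1 of 40 had an Il17a UMI and 0 and 0 an Il23r UMI. Il17f, a close relative of Il17a, had UMIs in 3 and 4 cells, and Il22 in 0 and 0, which with a floor of 3 counts allows up to 6.75 and 7.57 CPM.

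Most kidney cells with an Il17a UMI lay outside this population. The gamma-delta T cells held 30 of 405 such cells at WT day 14 (7.41%) and 11 of 89 in the knockout-labelled library (12.4%); 324 and 62 were CD3 cells without a Trdc UMI. By contrast they held 69 of the 102 cells with a Cd163l1 UMI and 80.5% of its UMIs at WT day 14, and 36 of 81 cells and 64.8% of UMIs in the knockout-labelled library. Of cells with a Trdv4 UMI they held 42 of 141 and 26 of 181, and another 24 and 28 were CD3-negative cells with Ncr1, a receptor of NK cells and group 1 innate lymphoid cells (ILC1/NK cells).

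The cells with an Il17a or Il23r UMI were compared with the other gamma-delta T cells within each library. They were higher in genes of the IL-17 kind and lower in genes of cytotoxic lymphocytes, in both libraries. Per 1000 UMIs of a cell, 30 type 17 genes (without Il17a and Il23r) summed to a median of 18.6 UMIs in the cells with either gene and 5.47 in the others at WT day 14, and to 18.4 and 6.19 in the knockout-labelled library. The sum of 22 type 1 and cytotoxic genes went the other way, with medians of 1.27 and 9.31, and of 2.07 and 7.30. The plot of single cells shows that cells without either gene fall into both parts.

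**Figure D1:**
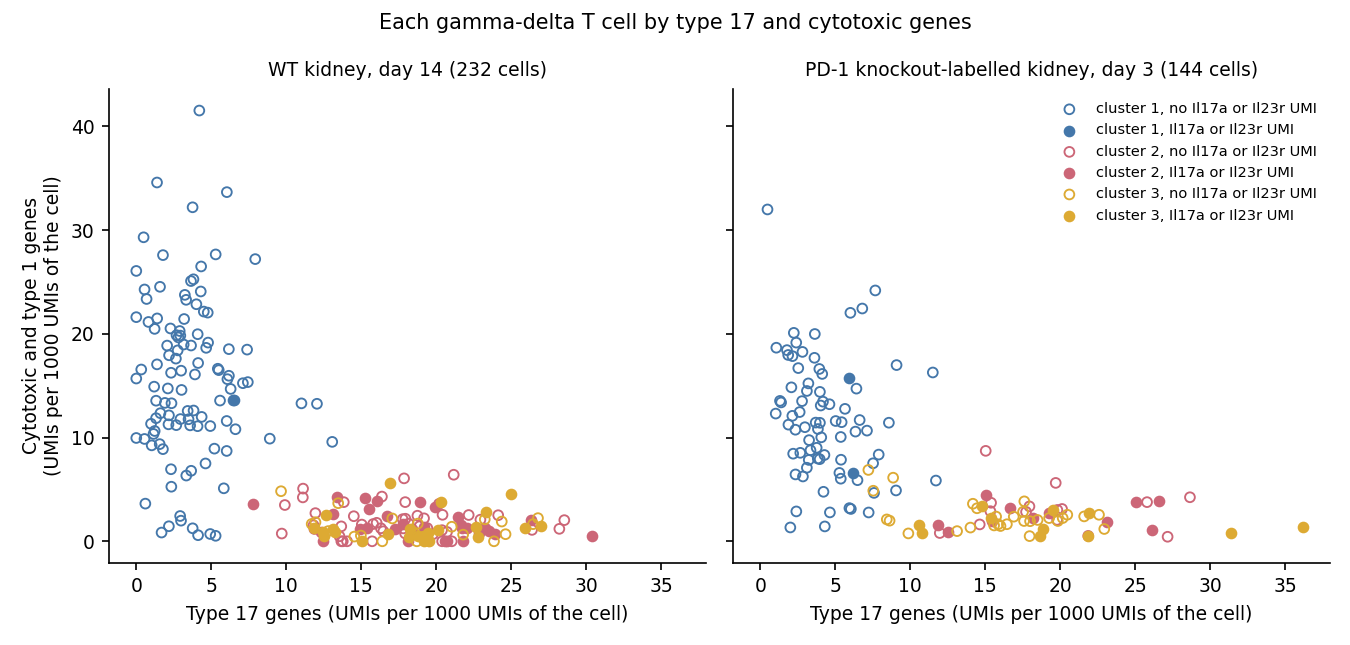
Each point is 1 gamma-delta T cell, placed by its UMIs of 30 type 17 genes (x axis) and 22 cytotoxic and type 1 genes (y axis) per 1000 UMIs; the panels are the 2 kidney libraries (232 and 144 cells), colours are sub-clusters 1 to 3, and filled points have an Il17a or Il23r UMI. Most filled points sit at the lower right, among many open points.

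A gene was measured if both sides summed to 50 UMIs or more and the higher side reached 50 CPM, and counted as higher or lower from a fold of 1.5. Among 1455 genes measured in both libraries, 66 (4.54%) were higher in both, 76 (5.22%) lower in both and 15 (1.03%) went opposite ways. Within a library, 214 (12.0%) were higher and 281 (15.8%) lower of 1783 at WT day 14, and 180 (11.4%) and 252 (16.0%) of 1574 in the knockout-labelled library. Most genes past the fold in a single library were thus not past it, or not measured, in the other.

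Of the type 17 list, 18 of the 18 genes measured at WT day 14 were higher (median log2 ratio 1.22, against -0.04 over all genes measured), as were 12 of 15 in the knockout-labelled library (0.92 against -0.01), and 12 of 15 were higher in both. The other 12 and 15 genes of the 30 on this list were too low to be measured. Passing the minimum was easier for a gene that is high on one side, so these counts describe the measured genes only. Blk stood at 778 against 237 CPM at WT day 14 and 941 against 268 CPM in the knockout-labelled library (the cells with Il17a or Il23r first), log2 ratios of 1.72 [1.26, 2.18] and 1.81 [1.32, 2.29]. Its UMIs lay in 39 of 56 against 49 of 176 cells at WT day 14 and 19 of 24 against 31 of 120 in the knockout-labelled library. Maf stood at 1200 against 429 CPM at WT day 14 and 735 against 311 CPM in the knockout-labelled library, log2 1.48 [1.13, 1.84] and 1.24 [0.72, 1.75]. For both genes the ratio was above 1 on the log2 scale in each library.

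Both scavenger receptors of this kind of cell were higher. Cd163l1 stood at 1041 against 367 CPM at WT day 14 and 573 against 335 CPM in the knockout-labelled library, log2 1.5 [1.12, 1.88] and 0.78 [0.21, 1.31]. Its chromosome 7 neighbour 5830411N06Rik, a scavenger receptor of the same family, stood at 450.0 against 118 CPM at WT day 14 and 397 against 149 CPM in the knockout-labelled library, log2 1.93 [1.29, 2.57] and 1.41 [0.68, 2.12]. Its UMIs were in 14 of 56 against 20 of 176 cells at WT day 14 and 9 of 24 against 18 of 120 in the knockout-labelled library, so most cells of either side had none. With 2 UMIs of Il17a and Il23r required, which leaves 7 cells in the knockout-labelled library, the ratio there turned to -0.62 for 5830411N06Rik and to -0.17 for Mmp25, a gene described further on.

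Receptors and regulators of the same list went along. Rora, a nuclear receptor, had log2 ratios of 0.87 [0.59, 1.15] and 0.97 [0.68, 1.24], and Cxcr6, a chemokine receptor of tissue lymphocytes, 1.09 [0.73, 1.44] and 0.92 [0.37, 1.44]. Il7r, the interleukin 7 receptor chain, had 0.72 [0.55, 0.89] and 0.34 [0.13, 0.55], the latter under the fold. Il1r1, the interleukin 1 receptor, had UMIs in 22 of 56 against 25 of 176 cells at WT day 14 and 11 of 24 against 14 of 120 in the knockout-labelled library, with log2 1.34 [0.62, 2.05] at WT day 14 and too few UMIs for a ratio in the knockout-labelled library. A further 4 genes of the list were too low for a ratio in either library. Aqp3, a water channel, had UMIs in 21 of 56 against 12 of 176 cells at WT day 14 and 12 of 24 against 5 of 120 in the knockout-labelled library. Ccr6, a chemokine receptor of IL-17-making cells, had them in 12 of 56 against 14 of 176 cells at WT day 14 and 6 of 24 against 11 of 120 in the knockout-labelled library, Il17re, a receptor chain for interleukin 17C, in 11 of 56 against 12 of 176 cells at WT day 14 and 4 of 24 against 8 of 120 in the knockout-labelled library, and Zbtb16, the transcription factor PLZF of innate-like T cells, in 11 of 56 against 16 of 176 cells at WT day 14 and 7 of 24 against 11 of 120 in the knockout-labelled library. Each was found in a larger share of the cells with Il17a or Il23r, in both libraries.

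By the rule for naming genes, the 10 with the highest ratios in both libraries were Blk, 5830411N06Rik, Gpx1, Nrip1, Mmp25, Pxdc1, Maf, Ramp3, Wls and Tmem176a. Gpx1, a glutathione peroxidase, had log2 ratios of 1.47 [0.88, 2.05] and 1.33 [0.71, 1.93]. Nrip1, a cofactor of nuclear receptors, had 1.31 [0.87, 1.75] and 1.46 [1.05, 1.87]. Mmp25, a membrane-anchored metalloproteinase, had 1.85 [1.35, 2.36] and 0.91 [0.11, 1.66]. Ramp3 and Ramp1 encode partners of the receptor for calcitonin gene-related peptide and adrenomedullin. Ramp3 had 1.82 [1.30, 2.36] and 0.87 [0.19, 1.51], and Ramp1 1.09 [0.5, 1.67] and 1.06 [0.32, 1.76]. Wls, a carrier of Wnt proteins, had 0.99 [0.28, 1.67] and 1.63 [0.80, 2.42]. Icos, a costimulatory receptor, Ccr2, a receptor for inflammatory chemokines, Il2ra and Furin, a protease, were also higher in both, Icos by 0.66 [0.34, 0.98] and 1.30 [0.99, 1.60] and Ccr2 by 1.09 [0.74, 1.43] and 1.13 [0.66, 1.59] on the log2 scale.

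The genes lower in the cells with Il17a or Il23r included, among those with the lowest ratios, Fcer1g, Ly6c2, Xcl1, Litaf, Hopx, Nkg7, Klrc1, Klrd1 and Ctla2a. Of the type 1 and cytotoxic list, 11 of 11 measured genes were lower at WT day 14 (median log2 -3.17) and 7 of 10 in the knockout-labelled library (-1.95). The remaining 11 and 12 genes of the 22 were too low to be measured. Nkg7, a cytotoxic granule protein, stood at 84.4 against 1001 CPM at WT day 14 and 88.2 against 767 CPM in the knockout-labelled library, log2 -3.57 [-4.71, -2.63] and -3.12 [-4.58, -1.98]. Its UMIs were in 4 of 56 against 98 of 176 cells at WT day 14 and 5 of 24 against 81 of 120 in the knockout-labelled library, and in 0 of 42 and 8 of 40 B cells. Xcl1, a chemokine of NK and cytotoxic T cells, had -4.88 [-7.93, -3.0] and -2.19 [-4.10, -0.78]. Fcer1g, a signalling adaptor of Fc and NK receptors, had -4.18 [-5.82, -2.95] and -3.56 [-6.62, -1.68]. Ccl5, a chemokine of memory and cytotoxic cells, had -4.01 [-4.73, -3.37] and -1.14 [-1.48, -0.82].

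Ly49 genes, a family of NK receptors for class I molecules, lay mostly on the other side. A UMI of any of 9 Ly49 genes was found in 2 of 56 cells with Il17a or Il23r against 58 of 176 at WT day 14, and in 0 of 24 against 30 of 120. Klra1 had 0 UMIs in the former at WT day 14 and 74 in the latter, at least 7.79-fold lower with the 0 set to 3 counts. The Ly49 genes are similar in sequence, so reads may be shared among them. Klrd1 and Klrc1 encode the chains of the inhibitory receptor CD94/NKG2A. Klrd1 had log2 ratios of -3.84 [-5.73, -2.46] and -1.76 [-3.24, -0.58], and Klrc1 of -3.17 [-4.64, -2.02] and -3.14 [-6.21, -1.24].

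Genes of recirculating lymphocytes went different ways. Lef1, a transcription factor of resting T cells, had -1.63 [-3.14, -0.43] and -2.10 [-4.41, -0.48]. Klf2, which drives exit from tissue, was lower at WT day 14, -1.73 [-2.99, -0.68], and not in the knockout-labelled library, 0.14 [-0.66, 0.88].

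Other lists, for signalling, metabolism and stress, were counted as well. Over all genes measured, 12.0% were higher and 15.8% lower at WT day 14, and 11.4% and 16.0% in the knockout-labelled library. With few genes measured per list, the counts below are a description only. Of the list for interleukin 23, interleukin 1 and STAT3 signalling, 1 gene was higher and 2 were lower of 6 measured at WT day 14, and 1 and 1 of 5 in the knockout-labelled library; Il2ra, the high-affinity interleukin 2 receptor chain, was the gene that was higher, at log2 0.76 [0.07, 1.43] and 1.06 [0.32, 1.76]. Of receptor signalling and costimulation, 2 were higher and 4 lower of 11 at WT day 14 and 5 and 5 of 11 in the knockout-labelled library. Icos and the adaptor Lat were higher in both, and Cd28, Cd2, Lck and Txk lower. Cd28, the main costimulatory receptor of T cells, had -2.88 [-5.19, -1.27] and -1.01 [-2.06, -0.11], and Cd2, an adhesion receptor, -1.51 [-2.56, -0.61] and -1.64 [-2.98, -0.54]. Of 6 and 4 measured glycolysis genes none was past the fold, nor was any of the 2 cell cycle genes measured at WT day 14, while 1 of 4, Stmn1, was higher in the knockout-labelled library. Of the heat shock list 4 of 9 measured genes were lower at WT day 14 and 1 of 6 in the knockout-labelled library, and 0 were higher in either. The 4 were Hspa1a, Hspa1b, Dnajb1 and Hspd1, and UMIs of Hspa1a and Hspa1b lay in few cells, as given further on. Areg, a growth factor of tissue repair, was too sparse for a ratio, with UMIs in 7 of 56 against 5 of 176 cells at WT day 14 and 4 of 24 against 10 of 120 in the knockout-labelled library. Ifng, the interferon gamma gene, had UMIs in 12 of 176 and 6 of 120 of the other cells and in 0 of 56 and 0 of 24 of the cells with Il17a or Il23r.

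**Figure D2:**
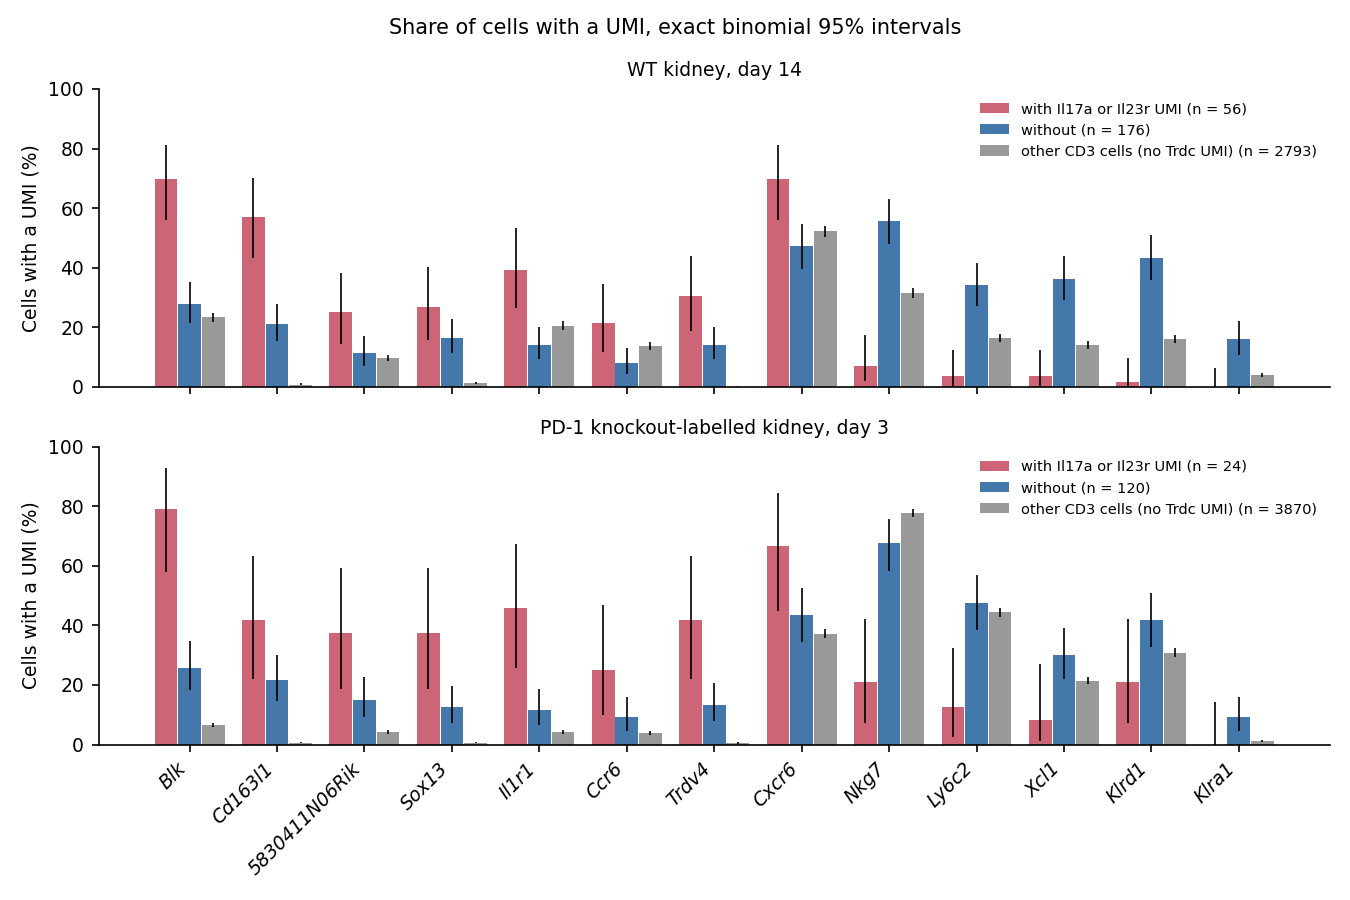
Percent of cells with at least 1 UMI of each gene (y axis, starting at 0) in gamma-delta T cells with an Il17a or Il23r UMI, in those without, and in CD3 cells without a Trdc UMI; bars are single libraries and lines exact binomial 95% intervals. Blk, Cd163l1 and Trdv4 are higher in the first group (30.4% against 14.2% for Trdv4 at WT day 14), Nkg7 and Ly6c2 in the second.

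**Figure D3:**
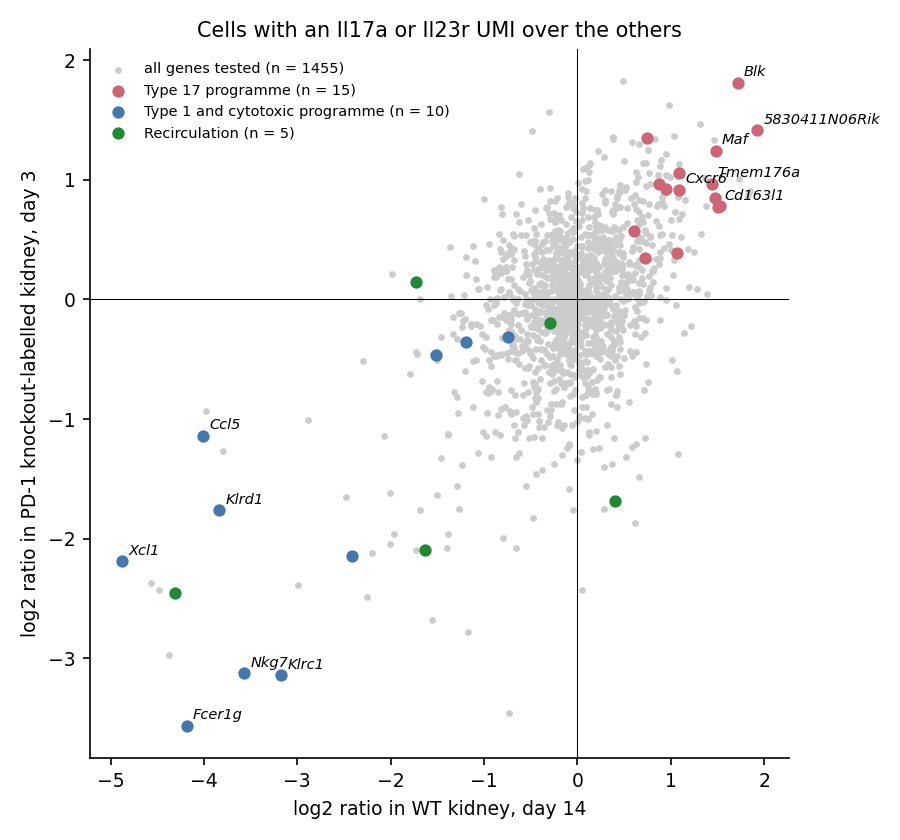
Log2 ratio of cells with an Il17a or Il23r UMI over the other gamma-delta T cells, WT day 14 (x axis) against knockout-labelled day 3 (y axis), for 1455 genes measured in both, with 3 gene lists in colour. All 15 measured type 17 genes lie above 0 on both axes, and all 10 cytotoxic genes below.

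Receptor genes were compared as well. Trgc1 was higher in the cells with Il17a or Il23r, at 2747 against 1421 CPM at WT day 14 and 1897 against 816 CPM in the knockout-labelled library, log2 0.95 [0.74, 1.16] and 1.22 [0.90, 1.53]. Trgc2 was within the fold, at -0.10 [-0.47, 0.26] and 0.36 [-0.13, 0.82]. Trgc1 and Trgc2 helped to choose the cells of both sides, and their separate values are uncertain, as said above. Trac differed by 0.24 [-0.29, 0.74] and 0.15 [-0.33, 0.61], intervals that hold 0 and reach past the fold upwards. Trdv4 had a UMI in 17 of 56 against 25 of 176 cells at WT day 14 and 10 of 24 against 16 of 120 in the knockout-labelled library.

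Absence of an Il17a or Il23r UMI did not mean absence of the other type 17 genes. Of the cells without either, 48 of 176 and 27 of 120 had a Cd163l1 or Sox13 UMI. A count of 9 type 17 genes, chosen after the values were seen, found at least 3 of them in 42 of 176 and 29 of 120 of these cells, against 36 of 56 and 16 of 24 of the cells with Il17a or Il23r. The cells were therefore also grouped by their whole profile. Clustering without receptor genes (1000 variable genes, 15 components, Leiden resolution 0.5) gave 3 clusters, which were found in both libraries. Their leading genes were used by the clustering and are given as a description.

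Cluster 1 held 109 of 232 cells at WT day 14 (47.0%) and 78 of 144 in the knockout-labelled library (54.2%), and its leading genes included Ly6c2, Klra1, Klrd1, Klrc1, Klre1, Ccl5, Klra7, Samd3 and Plac8. Only 2 and 2 of its cells had an Il17a or Il23r UMI. Ccl5 stood at 4588 and 4317 CPM and Nkg7 at 1490 and 1069 CPM, whereas Sox13 and Il1r1 had 0 UMIs in both libraries. The summed gamma-delta markers of cluster 1 (Trdc, Trgc1, Trgc2, Blk and Cd3e), mostly genes of the rule, stood at 4838 and 3757 CPM. Its alpha-beta markers (Trac, Trbc1, Trbc2, Cd4, Cd8a and Cd8b1) stood at 2412 and 4322 CPM, the higher sum in the knockout-labelled library. Its ILC1/NK markers (Ncr1, Klrb1c, Eomes, Tyrobp, Fcer1g and Xcl1) stood at 3039 and 1379 CPM. How many cells of cluster 1 carry a gamma-delta receptor was not tested. Cluster 2 held 77 cells (33.2%) and 26 (18.1%) and was led by Cd163l1, Abi3bp, Serpinb1a, Il17a, Mmp25, Sox13, Plxnd1, Ccr2, Il1r1 and Actn2; 31 and 11 of its cells had an Il17a or Il23r UMI. Cluster 3 held 46 cells (19.8%) and 40 (27.8%) and was led by 5830411N06Rik, Ccr6, Ramp3, Pxdc1, Sdc1, Lmo4, Hk2, Mki67, Ccr9 and Rgcc; 23 and 11 of its cells had Il17a or Il23r. Its Mki67 UMIs lay in 2 cells. Ccr6 and Ccr9 encode chemokine receptors of mucosal and gut-homing lymphocytes.

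The cells with Il17a or Il23r thus came mostly from 2 of the 3 clusters, whose leading genes include 1 of the scavenger receptors each. The clustering used both genes, so this contrast is a description, and a resolution of 0.3 gave 2 clusters and one of 1.0 gave 5. Cd163l1 was found in 58 of 77 and 24 of 26 cells of cluster 2, against 9 of 46 and 8 of 40 of cluster 3. 5830411N06Rik was found in 7 of 77 and 2 of 26 cells of cluster 2, against 24 of 46 and 23 of 40 of cluster 3. Over all gamma-delta T cells, 61 and 33 had Cd163l1 alone, 26 and 24 had 5830411N06Rik alone, and 8 and 3 had both.

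The variable segments were not used by the clustering. Trdv4 had a UMI in 39 of 77 and 19 of 26 cells of cluster 2, in 2 of 46 and 4 of 40 of cluster 3, and in 1 of 109 and 3 of 78 of cluster 1. Trgv6 had UMIs in 12 of 77 and 2 of 26 cells of cluster 2, in 0 of 46 and 1 of 40 of cluster 3 and in 0 of 109 and 0 of 78 of cluster 1. Of the cells with a Trdv4 UMI, 37 of 42 and 23 of 26 also had Cd163l1, against 32 of 190 and 13 of 118 of the cells without. Trgv1 had UMIs in 30 of 109 and 17 of 78 cells of cluster 1, against 6 of 77 and 2 of 26 of cluster 2. Its value in cluster 3 is not reported here. Trgv4 was near 0, with UMIs in 1 and 2 of all the cells. Trgc1 had UMIs in 77 of 77 and 26 of 26 cells of cluster 2 at 3230 and 3188 CPM, in 43 of 46 and 30 of 40 of cluster 3 at 1899 and 863 CPM and in 73 of 109 and 39 of 78 of cluster 1 at 745 and 400.2 CPM, so it was also above cluster 1 in cluster 3, where Trdv4 was rare; unlike the variable segments, Trgc1 also helped to choose the cells. A cell without a UMI of a variable segment may still carry it. Trac was in 41 of 77 and 13 of 26 cells of cluster 2, 19 of 46 and 29 of 40 of cluster 3, and 27 of 109 and 44 of 78 of cluster 1.

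**Figure D4:**
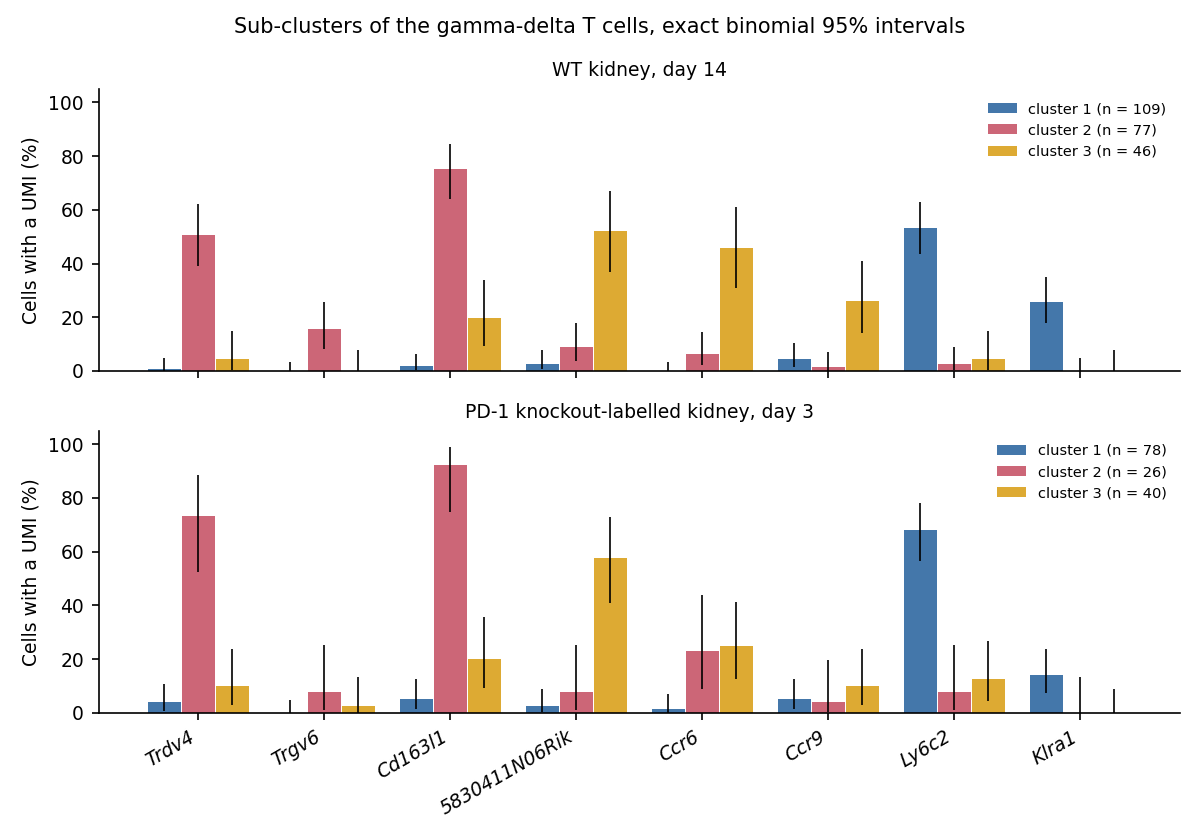
Percent of cells with a UMI of 8 genes (y axis, starting at 0) in sub-clusters 1, 2 and 3 of each kidney library; lines are exact binomial 95% intervals. Trdv4, Trgv6 and Cd163l1 are highest in cluster 2, 5830411N06Rik in cluster 3, and Ly6c2 and Klra1 in cluster 1; Trdv4 and Trgv6, as receptor genes, were left out of the clustering.

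Cd163l1 and 5830411N06Rik are both on the plus strand of chromosome 7, at 140218267 to 140231145 and 140247284 to 140300736 on GRCm38, with 16138 bases between them. Their coding parts were 73.2% identical. Their upstream sequences are shown because each of the 2 neighbours leads another cluster, with that of Il17a beside them. They are from RefSeq on GRCm38.p6, the 250 bases before the start, ended before any annotated exon, with the letters TGACCT (the reverse complement of AGGTCA, a core bound by nuclear receptors) in capitals.
Cd163l1 (chr7:140218017-140218266, plus strand): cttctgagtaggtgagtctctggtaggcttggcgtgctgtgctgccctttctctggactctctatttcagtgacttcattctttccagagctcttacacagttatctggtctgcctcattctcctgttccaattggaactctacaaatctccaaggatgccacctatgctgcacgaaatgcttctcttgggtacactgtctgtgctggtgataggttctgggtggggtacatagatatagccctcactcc
5830411N06Rik (chr7:140247051-140247283, plus strand): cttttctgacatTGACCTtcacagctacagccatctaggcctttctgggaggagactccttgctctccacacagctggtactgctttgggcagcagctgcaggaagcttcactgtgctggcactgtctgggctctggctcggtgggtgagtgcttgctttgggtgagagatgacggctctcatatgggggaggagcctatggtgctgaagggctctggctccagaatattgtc
Il17a (chr1:20730655-20730904, plus strand): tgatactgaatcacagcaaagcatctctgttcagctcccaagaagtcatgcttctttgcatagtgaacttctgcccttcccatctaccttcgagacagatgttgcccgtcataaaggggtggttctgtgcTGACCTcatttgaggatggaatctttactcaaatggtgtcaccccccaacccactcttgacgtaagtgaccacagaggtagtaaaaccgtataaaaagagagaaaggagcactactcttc
Of 16 genes searched on both strands, chosen after the values were seen, 12 had a window, of which the most upstream was searched, and the letters were found in 4 of them: 5830411N06Rik, Il17a, Il23r and Ccr6. Over all genes they occur in 4607 of 32851 windows of 250 bases (14.0%), a share per window in which a gene with several starts counts more than once. A match is a description of the letters and not a binding site.

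The libraries were then compared over all gamma-delta T cells, knockout-labelled day 3 over WT day 14. Of 3229 genes measured, 213 (6.6%) were at least 1.5-fold higher and 349 (10.8%) lower, and 152 (4.71%) and 245 (7.59%) when the counting interval also had to exclude 0. Over the cells with Il17a or Il23r alone 58 (9.6%) were higher and 85 (14.1%) lower of 604, with 7.62% and 8.61% when the interval excluded 0, and over the other cells 183 (6.93%) and 268 (10.1%) of 2641, with 4.77% and 7.16%. In such sums, fewer cells of a kind and less RNA per cell cannot be told apart, and cluster 2 held 18.1% of the cells in the knockout-labelled library against 33.2%. Pdcd1, which encodes PD-1, stood at 106 and 146 CPM, in 32 of 232 and 35 of 144 cells, log2 0.47 [-0.11, 1.06]. The sources used here do not say which part of the gene these UMIs came from, so they are no check of the knockout.

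Among the genes lowest in the knockout-labelled cells was Itga1, the alpha 1 chain of a collagen-binding integrin of tissue-resident lymphocytes. It stood at 247 and 30.3 CPM, in 53 of 232 and 7 of 144 cells, log2 -3.03 [-4.03, -2.17]. The ratio was -0.66 in CD3 cells without Trdc and -0.90 in ILC1/NK cells, and -1.73 in those CD3 cells with a Cd8a or Cd8b1 UMI, nearer to 0 than in the gamma-delta T cells in each case. At 1000 UMIs per cell it was found in 33 of 225 and 2 of 144 cells. Within cluster 1, the same gene was in 50 of 109 and 5 of 78 cells, log2 -3.30 [-4.40, -2.36]. The 2 genes with larger negative ratios were heat shock genes carried by few cells, Hspa1b with its WT day 14 UMIs in 10 cells and Hspa1a in 7.

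Of 12 measured type 1 and cytotoxic genes 6 were lower in the knockout-labelled cells and 0 higher (median log2 -0.61 against -0.03 over all genes): Fcer1g, Cd7, Klrk1, Xcl1, Klrc1 and Klrd1. Of 5 measured Ly49 and NK receptor genes 3 were lower, Klra1, Klra7 and Klre1, and 0 higher (median -1.06). Fcer1g had -1.17 [-1.49, -0.86], against 0.47 in the other CD3 cells and -0.34 in ILC1/NK cells. Xcl1 had -0.87 [-1.24, -0.5], against 0.35 and -0.13. Klra1 had -1.58 [-2.34, -0.88] and Klra7 -1.51 [-2.22, -0.85]. Within cluster 1, Fcer1g had -1.51 [-1.86, -1.18], Xcl1 -1.12 [-1.51, -0.73] and Klra1 -1.70 [-2.46, -1.0], the same directions as over all cells. Ly6c2 and Ccl5, which also led cluster 1, differed there by 0.08 [-0.17, 0.33] and -0.09 [-0.22, 0.04].

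Of 25 measured type 17 genes, 7 were lower, 1 was higher and 17 missed the fold (median log2 -0.30). Maf had -0.68 [-0.98, -0.39], Cxcr6 -0.73 [-1.02, -0.44] and Serpinb1a -0.86 [-1.33, -0.40]. In the other CD3 cells the ratios were -1.10, -0.95 and -2.10. S100a4, a calcium-binding protein of effector cells, was the gene that was higher, 1.02 [0.77, 1.26], and was higher in all 3 clusters, by 1.41, 1.26 and 0.86. Cd163l1 differed by -0.49 [-0.80, -0.19] over all cells and by 0.01 [-0.35, 0.35] within cluster 2. Blk differed by 0.06 [-0.26, 0.39] over all cells, 0.93 [0.49, 1.37] within cluster 2 and -0.63 [-1.16, -0.10] within cluster 3, the cluster whose group 2 marker sum also differs between the libraries.

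Genes higher in the knockout-labelled cells were led by Stmn1, Mki67, H2-Aa, H2-Eb1, H2-Ab1, Calca, Gadl1, Top2a, Tuba1b and Cd74. Of 7 measured cell cycle genes 6 were higher, but from few cells: Mki67 had 50 UMIs in 6 cells of the knockout-labelled library against 5 UMIs in 5 cells at WT day 14, and Stmn1 52 UMIs in 11 cells against 2 in 2. H2-Aa, H2-Eb1 and H2-Ab1 encode class II antigen-presenting molecules and Cd74 their invariant chain. H2-Aa was at 15.7 and 144 CPM, in 6 of 232 and 35 of 144 cells, log2 3.19 [2.06, 4.57]. The ratio was 2.77 in other CD3 cells and 1.49 in ILC1/NK cells. For H2-Eb1 the ratios were 2.87 and 1.86, for H2-Ab1 2.71 and 1.24 and for Cd74 1.97 and 1.55, so these 4 genes, which are on none of the lists, were also higher in both other kinds of cell. Of 8 measured genes of the gamma-delta and CD3 list, 2 were lower, Trgc1 and Cd3g, and 0 higher (median log2 -0.43). Over all genes 10.8% were lower. Most genes of that list also helped to choose the cells. Of the alpha-beta and coreceptor list, 3 of 5 measured genes were higher, Cd8a by 1.42 [0.77, 2.09], Trac by 0.80 [0.51, 1.09] and Cd8b1 by 0.79 [0.23, 1.37]. CD3 cells without Trdc but with a Cd8a or Cd8b1 UMI were 13.9% of kept cells at WT day 14. In the knockout-labelled library they were 40.0%. Their part in these 3 ratios, as doublets or free RNA, was not tested. Calca, which encodes calcitonin gene-related peptide and is a marker of group 2 innate lymphoid cells, had 2.19 [1.40, 3.05], and the summed group 2 markers stood at 245 and 479 CPM. They were highest in cluster 3 of the knockout-labelled library, at 990.4 CPM against 253 CPM in cluster 3 at WT day 14, with 217 against 213 CPM in cluster 1 and 409.9 against 291 CPM in cluster 2; Calca was in that cluster in 12 of 40 cells against 1 of 46. The part of these transcripts in the other differences between the libraries was not tested.

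**Figure D5:**
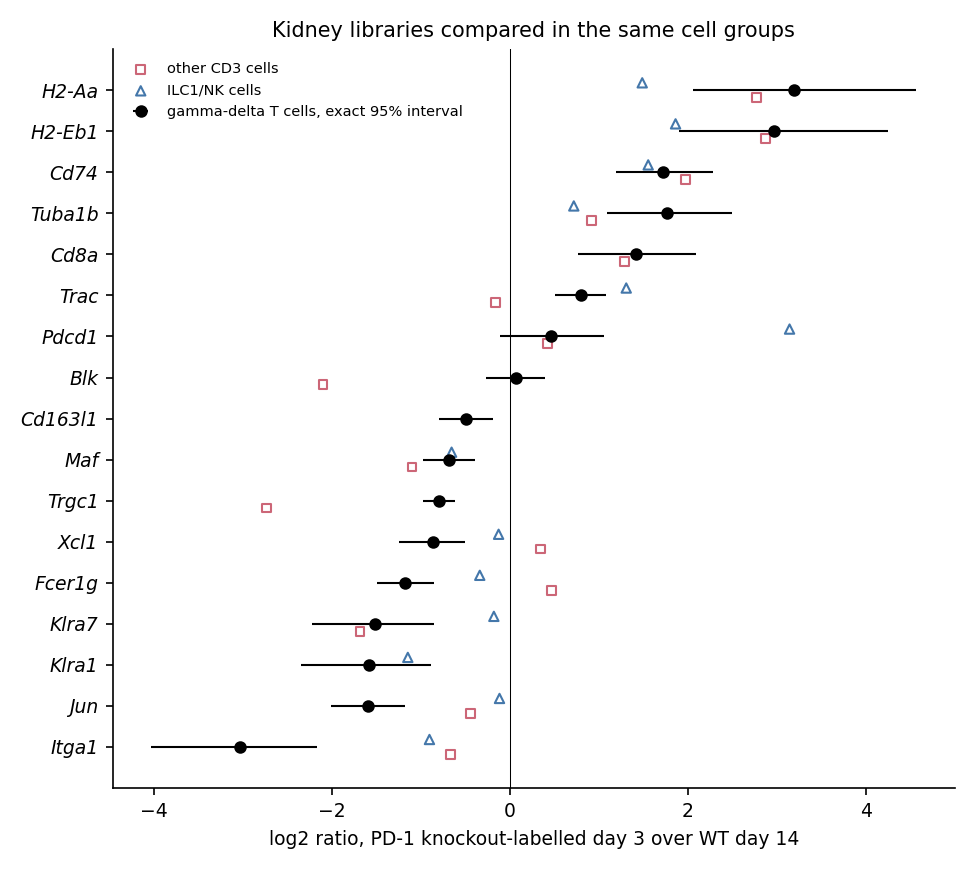
Log2 ratio of knockout-labelled day 3 over WT day 14 (x axis) for selected genes in the gamma-delta T cells (black, with exact 95% counting intervals), in CD3 cells without Trdc (squares) and in ILC1/NK cells (triangles); a symbol is missing where a gene was too low. H2-Aa, H2-Eb1 and Cd74 are higher in all 3 groups, while Itga1 is -3.03 in the gamma-delta T cells and between -0.90 and -0.66 in the others.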

How the data were processed

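The authors deposited gene-by-cell UMI counts of BD Rhapsody libraries; per the submitters' processing notes, UMI-tools, Seurat, CASAVA 1.8 and the build mm10 were used. The aligner and the gene annotation were not found in the labels or headers. Of the file's gene IDs, 31107 of 31253 were found in GENCODE vM21. The members and gene lists were chosen with earlier results of these data known. Counts of the selected cells were summed per library and expressed as CPM. Genes with 50 or more UMIs over both sides and 50 CPM on the higher side were compared, and a fold of 1.5 was called. A side with 0 UMIs was set to 3 counts and is a bound. Intervals are exact (Poisson, Clopper-Pearson binomial, conditional binomial) at 95% and cover counting error between UMIs only. Each group is 1 library, so no test was made and replicate error is unknown. CD3 cells without Trdc, ILC1/NK cells (no CD3 UMI, at least 1 Ncr1 UMI) and B cells (Cd79a and Cd79b, no CD3 UMI) were set beside. Named genes were the 10 highest and 10 lowest ratios of each comparison (for cells with Il17a or Il23r, by the mean of both libraries with the same direction in both), leaving out mitochondrial, ribosomal, predicted, immunoglobulin, receptor segment, sex-linked and haemoglobin genes, plus members of fixed lists. Receptor variable segments, Ccr2, Icos, Furin and the upstream sequences were chosen after their values were seen. Clustering used scanpy 1.11.5 and leidenalg 0.10.2 with 15 neighbours, seed 1 and no integration. No doublet caller was run. Some genes of these lists are not reported here. The comparison code was checked on simulated counts. Python 3.11.15, numpy 2.4.6, scipy 1.17.1 and Biopython 1.88 were used.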

Additional observations from a re-analysis of the deposited data

Results flagged for a closer look

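The small intestine libraries, which no comparison above uses, held cells that pass the same counts. There were 22 of 3501 kept cells after sham surgery and 49 of 4946 at day 3 of UUO. Cd8a, which encodes the alpha chain of the CD8 coreceptor and marks intraepithelial lymphocytes, was in 20 of 22 and 44 of 49 of them, and Cd8b1 in 0 and 1. Gzma, a granule protease, was in 15 and 41, and Itgae, an integrin chain that binds epithelium, in 22 and 45. Il17a had no UMI in either library, and Cd163l1 a UMI in 1 and 0 cells, Trdv4 in 0 and 1, Blk in 2 and 3 and Ly6c2 in 0 and 0. Il23r had UMIs in 3 of 22 and 6 of 49. The difference between organs was not tested.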

How the results depend on the processing

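No paired analysis was possible because each group is 1 library. Of the single-gene results under the alternatives, 1971 moved by less than their interval, 171 by more and 4 reversed. The share of kept cells that are gamma-delta T cells (WT day 14, then knockout-labelled) was 3.78% and 1.72% with at least 3 CD3 UMIs, 3.61% and 1.61% with at least 2 Trdc UMIs, 3.68% and 1.54% with at least 2 gamma constant UMIs, 2.78% and 0.911% after thinning and 0.269% and 0.0287% for cells without a Trac, Trbc1 or Trbc2 UMI. The share with Il17a or Il23r was 8.19% and 4.86% from 2 UMIs, 16.9% and 7.64% thinned, and 7.14% (1 of 14) and 50% (1 of 2) without alpha-beta UMIs. Genes higher and lower in cells with Il17a or Il23r numbered 30 and 30 at WT day 14 and 18 and 30 in the knockout-labelled library with at least 200 UMIs, and 64 and 119, and 44 and 109, at a fold of 2. Without alpha-beta UMIs they were 8 and 15 at WT day 14, and no gene was measured in the knockout-labelled library. In alternatives chosen after seeing the data, 66 higher and 76 lower held in both libraries, and an interval clear of 0 left 157 lower at WT day 14 and 112 higher and 103 lower in the knockout-labelled library. Between libraries, genes higher and lower numbered 16 and 39 with at least 200 UMIs, 40 and 57 at a fold of 2, 9 and 18 without alpha-beta UMIs and 58 and 85 in cells with Il17a or Il23r only. Fewer genes were measured or a stricter fold was used in each of these. In the knockout-labelled library, 5830411N06Rik reversed to -0.62 and Mmp25 to -0.17 from 2 UMIs of Il17a or Il23r (7 cells), and H2-Eb1 to 0.015 as a mean over cells. Trgc1 between libraries, lower in the knockout-labelled library over all cells, reversed to 1.36 in cells without alpha-beta UMIs (14 and 2 cells). The cause was not tested. Leiden resolution 0.3 gave 2 clusters and 1.0 gave 5. Depth limits Il23r and the variable segments to shares of cells.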

Other observations

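Cells with a Trdv4 UMI but no Il17a or Il23r UMI numbered 25 of 42 at WT day 14 and 16 of 26 in the knockout-labelled library. Of these, 21 and 14 had a Cd163l1 or Sox13 UMI and 5 and 5 an Nkg7 UMI. Cells with Nkg7 and a Ly49 UMI numbered 50 and 26. Hspa1b and Hspa1a, heat shock genes, had up to 81 and 64 UMIs in 1 cell at WT day 14.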
